A study of Mus musculus with 10 samples.

Results

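The nontransgenic (NTG) mouse ventricle was described from 3 arrays of the 10 in the series, chosen by the genotype label nontransgenic control. NTG array 1 and NTG array 2 each carried an RNA extract of 1 heart (heart 1 and heart 2), and NTG array 3 carried extracts of 20 hearts combined (the pool). The labels do not say whether the pool also held the hearts measured alone. The remaining 7 arrays, 3 of alpha-TM175 and 4 of alpha-TM180 ventricles, again with 1 pool of 20 hearts per genotype, were used only for comparison. From background knowledge of these lines, both carry an alpha-tropomyosin transgene that the NTG mice lack, and the series concerns early mild and severe hypertrophy. The labels name no treatment, and the strain, age, sex and transgene promoter are not given in the sources used here.

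Values are probe set intensities made by the authors with RMA (robust multi-array average) and are given on the linear scale. Each gene is represented by the brightest probe set annotated to its symbol alone, and 12336 of 12393 such genes could be ranked by their mean over the 3 NTG arrays. The other 57 had only probe sets whose level could not be settled, because the deposited table sets a point before the last 3 digits of values of 1000 or more, so that a number written between 5 and 10 can be itself or 1000 times as much. A probe set's brightness depends on its probe sequences as well as on the transcript, so that the order below is an order of brightness and not of transcript number. In bulk tissue, more cells of a type and more RNA per cell cannot be told apart. Across genes, log2 intensities of pairs of NTG arrays correlated at 0.980 to 0.990, a description over genes that share the same arrays. The number of arrays limits the precision, and p-values measure only the spread between these arrays.

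The ventricular wall pumps blood by sliding myosin thick filaments along actin thin filaments, which tropomyosin and the troponin complex regulate in response to calcium released from the sarcoplasmic reticulum. Adult cardiomyocytes pay for this work mainly by burning fatty acids in densely packed mitochondria, with myoglobin as an oxygen store and creatine kinase as an energy shuttle. Many of these proteins exist as paralogues used in the ventricle, the atrium, the fetal heart or skeletal muscle.

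Contractile and mitochondrial genes led the ranking. The brightest was Mb, myoglobin, which read 13411 in heart 1, 14268 in heart 2 and 12895 in the pool, a mean of 13525 ± 694 (SD, n = 3). Tpm1, alpha-tropomyosin, followed at 12282 ± 987, Myl3, the ventricular essential light chain, at 10645 ± 909, and Myl2, the ventricular regulatory light chain, at 10395 ± 106. Heart 2 was the highest of the NTG arrays for Mb, Tpm1 and Myl2, and heart 1 for Myl3. The order of Myl3 and Myl2 changed between arrays, since Myl2 was the brighter in heart 2. Next came the troponin I gene Tnni3 (8677 ± 307), the complex III subunit gene Uqcrb (8599 ± 617), the cytosolic malate dehydrogenase gene Mdh1 (8459 ± 343) and the alpha-myosin heavy chain gene Myh6 (8375 ± 738). These neighbours differed by less than their SD. The list of 20 went on with Slc25a4 (7979), Tpt1 (7912), Cox5b (7525), Cox4i1 (7247), Atp5a1 (7225), Lpl (7007), Aldoa (6913), Atp5g3 (6720), Atp5b (6658), Ckm (6574), Ldhb (6459) and Tnnt2 (6291).

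**Figure D1:**
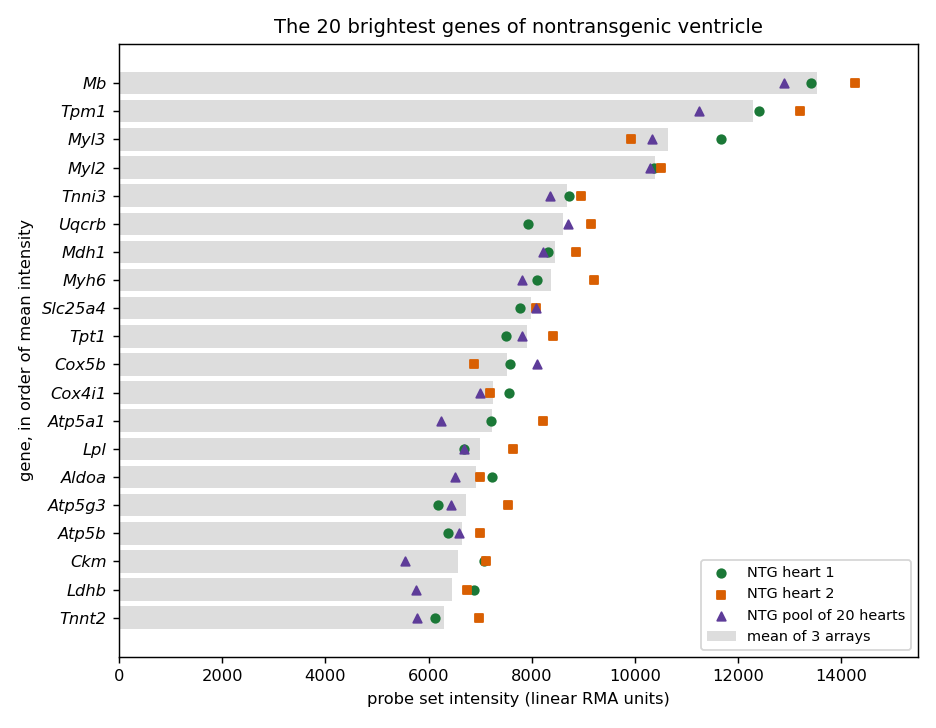
Horizontal bars show the mean probe set intensity (linear RMA units) of the 20 brightest genes over the 3 NTG arrays, and symbols show heart 1, heart 2 and the pool of 20 hearts. Mb stands first at 13525 and Tnnt2 closes the list at 6291, and for most neighbouring genes the symbols of the 3 arrays overlap.

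The 20 brightest genes held 5.35% of the intensity summed over all ranked genes in heart 1, 5.99% in heart 2 and 5.27% in the pool, a mean of 5.54% ± 0.40 (SD, n = 3). Heart 2 had the largest share. In all, 488 genes reached a mean of 1000, against a median of 90.6 over all ranked genes. Which genes fill the first places depended on how a gene's probe sets were joined. With the mean over a gene's probe sets 10 of the 20 stayed, and with every unsettled probe set read at 1000 times its written value 4 stayed. The second reading is an upper bound, since among 455 probe sets written between 5 and 10 in all arrays whose level was settled, 23 took the higher reading.

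By function, 29 of the 100 brightest genes were in lists of respiratory chain and ATP synthase subunits with 49 measured members. The lists are not complete, and more of the 100 brightest genes encode such subunits. Listed sarcomere, titin and Z disc genes supplied 13 of their 26 measured members, and citrate cycle and linked genes 6 of 20. Fatty acid uptake and oxidation supplied 6 of 21, ribosomal proteins and translation factors 5 of 32, and glycolysis 4 of 15. For comparison, 0.811% of all ranked genes stood among the 100 brightest. The listed respiratory and ATP synthase genes together held 6.53% ± 0.10 of the summed intensity (SD, n = 3) and were 0.397% of the genes ranked. The listed sarcomere and Z disc genes held 3.64% ± 0.15 and were 0.211% of the genes. These lists were chosen with earlier results of these data known, so the counts describe the lists.

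In the thin filament, 4 cardiac genes were bright and their skeletal or slow paralogues dim. Tnnt2, cardiac troponin T, read 6116, 6983 and 5775 in heart 1, heart 2 and the pool, while the slow skeletal Tnnt1 averaged 104 and the fast skeletal Tnnt3 18.9. Tnni3, cardiac troponin I, stood beside Tnni2 at 88.5 and Tnni1, the fetal and slow skeletal form, at 42.0. Tnnc1, the calcium-binding troponin C of heart and slow muscle, read 5848, 5311 and 5166, and the fast skeletal Tnnc2 averaged 15.7. Tpm1 was accompanied by Tpm4 at 433, Tpm3 at 327 and Tpm2 at 319. For each of these families the brightest member was the same in all 3 arrays, and no array of a dimmer member came near it. Actin could not be ordered in this way. The only probe set of Actc1, cardiac alpha-actin, was unsettled and read either 7.59, 8.88 and 8.12 or 7591, 8885 and 8121, the latter mean of 8199 being rank 9. Acta1, skeletal alpha-actin, averaged 2027.

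The thick filament was led by the adult ventricular forms. Myh6 read 8104, 9210 and 7811, whereas Myh7, the slow beta-myosin of the fetal ventricle, read 342, 350 and 325. Both genes were steady, and the arrays of one stood far from those of the other. The nonmuscle heavy chain gene Myh9 averaged 527, the smooth muscle Myh11 59.7, and the skeletal or embryonic Myh2, Myh1, Myh3 and Myh8 51.7, 19.6, 13.9 and 9.51. The probe sets of Myh6 did not behave alike. A second Myh6 probe set read 280, 69.0 and 1623, and 1 annotated to both genes (Myh7;Myh6) read 745, 140 and 2493, so that both were lowest in heart 2 and highest in the pool, while another shared probe set read 9648, 9810 and 9230. Among light chains Myl4, the atrial essential form, averaged 150, and Myl7, the atrial regulatory form, read 151, 39.8 and 37.2. Heart 1 was the high array for Myl7. Myl1, the fast skeletal essential chain, averaged 1131. Ttn, the giant spring protein titin, averaged 4402 and the M-band genes Myom2 and Myom1 1930 and 1802. Mybpc3, cardiac myosin-binding protein C, was unsettled (5.65, 5.81 and 5.18, or 5648, 5812 and 5176).

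At the Z disc, which anchors the thin filaments, Cryab, a small heat shock protein, averaged 4792, Tcap, the titin cap, 4426, and Actn2, the sarcomeric alpha-actinin, 4304. The nonmuscle Actn4 averaged 606 and the fast skeletal Actn3 47.2. Ankrd1, a stretch-responsive ankyrin repeat protein, averaged 4172, Myoz2, a calcineurin-binding protein, 3882, and the muscle LIM protein gene Csrp3 3127. Their paralogues Myoz1 and Csrp2 averaged 173 and 169. Fhl2, a LIM protein, averaged 3383 and Fhl1 944.

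Promoter stretches are shown for 5 bright sarcomere genes and for Myh7, the dim paralogue of Myh6, because the MCAT element (CATTCC, or GGAATG on the other strand) is a textbook binding site of TEAD factors in muscle promoters. Only genes with a match were shown. Capitals mark each match within the stretch. Sequences are RefSeq's for GRCm38.p6, 5′ to 3′ on the gene's strand.
Tpm1 (chr9:67049214-67049323, minus strand): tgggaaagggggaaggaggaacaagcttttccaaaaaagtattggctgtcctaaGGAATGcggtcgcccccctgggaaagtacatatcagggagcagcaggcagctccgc
Tnnt2 (chr1:135836224-135836333, plus strand): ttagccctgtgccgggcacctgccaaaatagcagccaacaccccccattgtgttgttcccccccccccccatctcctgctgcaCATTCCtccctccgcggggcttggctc
Tnnc1 (chr14:31208202-31208311, plus strand): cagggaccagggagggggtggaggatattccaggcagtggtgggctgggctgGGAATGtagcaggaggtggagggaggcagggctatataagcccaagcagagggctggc
Myl3 (chr9:110763476-110763585, plus strand): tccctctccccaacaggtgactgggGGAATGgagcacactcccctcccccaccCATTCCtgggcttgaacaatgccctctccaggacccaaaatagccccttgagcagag
Myh6 (chr14:54966729-54966838, minus strand): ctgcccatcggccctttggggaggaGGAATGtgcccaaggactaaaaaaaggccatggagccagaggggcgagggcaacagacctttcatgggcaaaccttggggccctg
Myh7 (chr14:54994743-54994852, minus strand): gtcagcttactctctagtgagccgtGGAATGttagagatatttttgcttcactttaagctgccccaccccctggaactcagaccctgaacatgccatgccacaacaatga
In the 250 bases before the annotated start, on either strand, the element was found for 10 of 21 sarcomere and Z disc genes with an entry and for 14.4% of all genes. It stood before 33.3% of the 30 starts of these sarcomere and Z disc genes, and before 12.6% of all 32851 starts and 14.7% of the 102 starts of the 100 brightest genes. The bright Myh6 and the dim Myh7 both hold a match. A match is a description of these letters and not a bound site.

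The calcium cycle of the sarcoplasmic reticulum was represented by its cardiac members. Pln, phospholamban, the brake on the calcium pump, averaged 6094 ± 457 (SD, n = 3), whereas Sln, the atrial and skeletal counterpart sarcolipin, averaged 66.1. Atp2a2, the SERCA2 pump, read 2005, 2093 and 1964 by its brightest settled probe set, and the skeletal Atp2a1 averaged 130. Both of its unsettled probe sets would be brighter in the higher reading, at 8980 and 8004. Ryr2, the cardiac release channel, averaged 1633, and the skeletal Ryr1 22.1. Casq2, the cardiac calcium buffer calsequestrin, averaged 1824 and the skeletal Casq1 824, and Casq2 was the brighter in every array. The calcium sensor gene S100a1 averaged 3486 and Hrc, a histidine-rich calcium-binding protein, 2961.

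Of 13 ion transport and gap junction genes, Fxyd1, phospholemman, the regulator of the sodium pump, was brightest at 4717, followed by the pump subunit gene Atp1b1 at 2441. Gja1, the ventricular gap junction protein connexin 43, averaged 1924, while Gja4, Gjc1 and the conduction system connexin gene Gja5 averaged 112, 93.7 and 14.9. Potassium channel genes were dimmer, with Kcnh2 at 373 and Kcnq1 at 340.

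**Figure D2:**
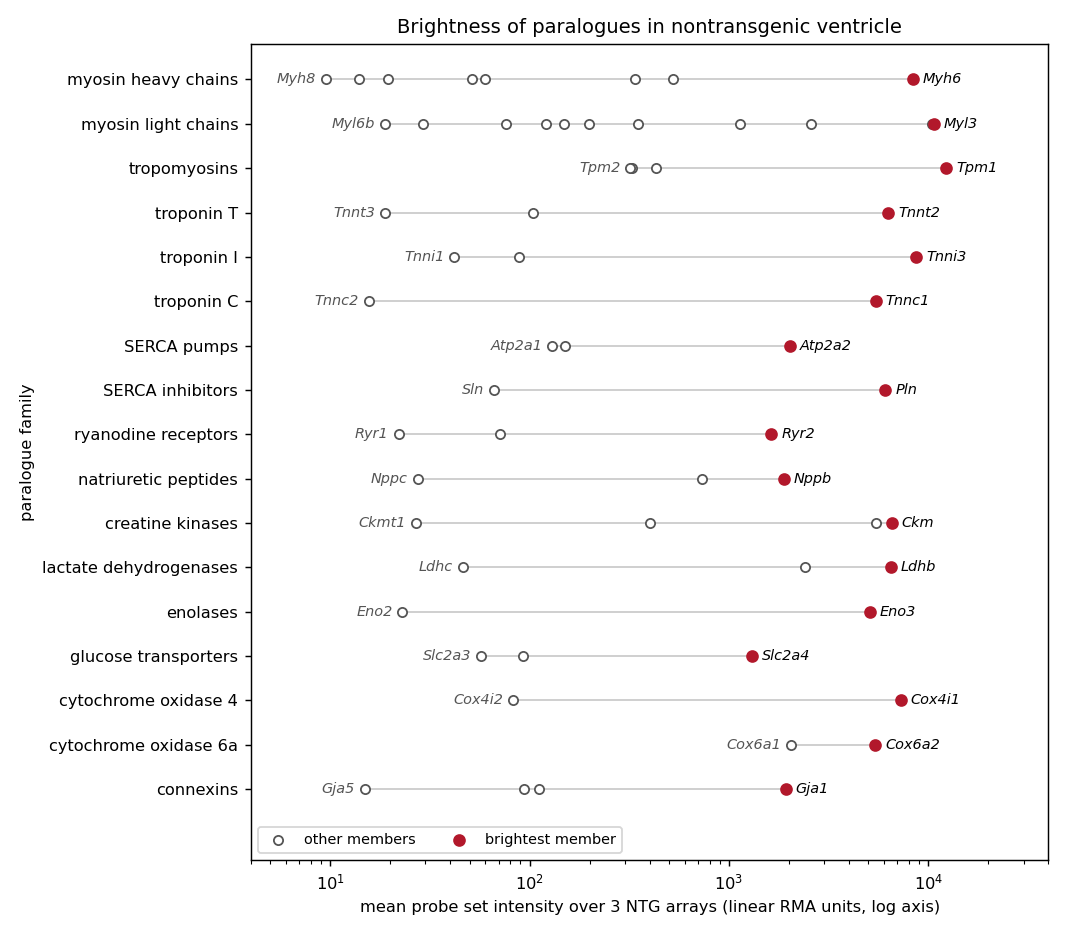
Points show the mean probe set intensity over the 3 NTG arrays (linear RMA units, log axis) of the measured members of 17 paralogue families, filled for the brightest member and open for the others, with the brightest and dimmest member named. Myh6 at 8375 stands apart from Myh7 at 339, and Pln at 6094 from Sln at 66.1, while Ckm and Ckmt2 lie side by side.

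Energy genes showed the same preference for muscle or heart forms in some families and not in others. Ckm, the muscle creatine kinase, read 7075, 7112 and 5536, and Ckmt2, its mitochondrial partner, averaged 5456, with Ckb, the brain form, at 400. The pool was the low array for Ckm. Ldhb, the heart-type lactate dehydrogenase, averaged 6459 and Ldha, the muscle type, 2407. In glycolysis Aldoa averaged 6913 and Aldoc 41.7, Eno3, the muscle enolase, 5076 and Eno2, the neuronal form, 23.1. The aldolase and enolase families each held 2 measured members, so that no other form was compared. The muscle forms Pgam2 and Pfkm averaged 2888 and 2753, against 320 for Pgam1 and 1005 for Pfkl. Slc2a4, the insulin-responsive glucose transporter, averaged 1299 and the widespread Slc2a1 92.8. The hexokinase genes Hk2 and Hk1 (1006 and 871) and the glycogen phosphorylase genes Pygb and Pygm (2514 and 2388) had no member that was brightest in every array, and in both families heart 2 reversed the order.

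Listed subunits of the respiratory chain were mostly bright, with 32 of 33 measured genes at 1000 or more and a median of 3278. Of the 16 listed ATP synthase genes, 15 reached 1000 and the median was 3964. In cytochrome oxidase, which passes electrons to oxygen, the tissue-specific forms were not uniformly the brighter ones. The muscle forms Cox6a2 (5414) and Cox8b (4860) stood above Cox6a1 (2038) and Cox8a (2158), but the muscle form Cox7a1 (2990) stood below Cox7a2 (5081). Each of these orders held in all 3 arrays. Cox4i1 averaged 7247 and the hypoxia-linked Cox4i2 82.6. The adenine nucleotide translocator genes Slc25a4 and Slc25a5 averaged 7979 and 3092.

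For fuel, 16 of 21 fatty acid genes reached 1000, with Lpl, the lipase that releases fatty acids from circulating lipoproteins, at 7007 ± 553 (SD, n = 3). Hadhb, the trifunctional protein beta subunit, averaged 5324, and the acyl-CoA dehydrogenase genes Acadm, Acadvl and Acadl 3602, 3457 and 3348. Fabp3, the heart fatty acid binding protein, was unsettled, at 7.90, 7.37 and 7.46 or 7899, 7373 and 7464. Of 20 citrate cycle and linked genes, 18 reached 1000, among them Mdh2 at 4777 and Cs, citrate synthase, at 3569. For 40 families with at least 2 measured members, the ratio of the brightest to the next was taken as the geometric mean over the 3 arrays. It was at least 10 in 15 families, between 2 and 10 in 15 and under 2 in 10, and 34 had the same brightest member in all 3 arrays. Actins counted in the middle class at 3.065, though their ratio ran from 0.454 to 10.25 between arrays. Unsettled probe sets, such as those of Actc1 and Fabp3, were left out of these ratios.

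Probe sets of the factors that direct these programmes were mostly of moderate or low intensity. Of 15 cardiac transcription factor genes only Hopx, a homeodomain-only cofactor, passed 1000 (3928), and Mef2a averaged 807, Nkx2-5 651, Gata4 407 and Srf 323. Of 12 regulators of metabolism none reached 1000. Esrra, which drives mitochondrial genes, read 291, 236 and 285, whereas Ppara, the fatty acid receptor, read 75.3, 57.7 and 477, and Ppargc1b, a mitochondrial coactivator, 249, 196 and 673. The pool alone was high for the latter 2 genes.

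Housekeeping classes were bright as well. Of 24 ribosomal protein genes 22 reached 1000, with a median of 2261 and Rps29 first at 5832. Eef1a2, the muscle and nerve form of the elongation factor, averaged 5885 and the widespread Eef1a1 3573. Among 17 chaperone genes Hspb1, a small heat shock protein, averaged 5240 and Hspa8 3003. Of 15 antioxidant and iron genes Gpx4, a lipid peroxide reductase, averaged 3073 and Fth1, ferritin heavy chain, 3068.

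Genes of the fetal and stress programme ranged from Postn at 206 to Ankrd1 at 4172 in NTG, with a median of 732 over 9 genes. Nppb, the B-type natriuretic peptide, read 2210, 1328 and 2099, and Nppa, the atrial peptide, 906, 635 and 655. Heart 2 was lowest for both. Ccn2, a growth factor of fibrosis, read 474, 266 and 627, again lowest in heart 2. Over the 9 genes of this list 7 were higher in heart 1 than in heart 2, with a median log2 difference of 0.47. Heart 1 was the higher for 49.9% of all ranked genes, but for 70.7% of those with a mean of at least 100 (median 0.13) and 79.2% of those of at least 500 (median 0.17), so that the count for this list was near that of genes of like brightness.

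The labelled tissue was checked against cell type markers. The ventricular markers Myl3, Myl2, Tnni3 and Myh6 were among the 100 brightest genes, Ryr2 reached 1633 and Irx4, a ventricular transcription factor, 135. Of 7 atrial markers 4 averaged under 100, among them Bmp10 at 49.3 and Sln at 66.1, while Nppa stood at 732, Stard10 at 207 and Myl4 at 150. Their summed level was 1621, 1221 and 1161 in heart 1, heart 2 and the pool. Fibroblast genes were led by Gsn (4082), which muscle also expresses, and Dcn (2405), and their sum was 11003, 9992 and 11902. Endothelial genes were led by Cav1 (1256) and Eng (905), and macrophage genes by Csf1r (743) and Lyz2 (635). Of 9 T and B cell markers, with a median of 43.5, Cd3e (219) and Ighm (159) reached 100, and Cd3g (14.6), Cd8a (25.7) and Cd79b (17.1) were among the dimmest. Skeletal muscle markers other than Ckm and Casq1 averaged 130 or less, and of adipocyte markers Fabp4, which endothelium also expresses, stood at 2230 but Adipoq at 25.5. A probe set shared by the alpha-globin genes (Hba-a2;Hba-a1) read 4890, 6324 and 5986, so that its globin signal was high in all 3 arrays. Of 5 red blood cell markers with a ranked probe set of their own, 1 reached 100, and their median was 31.6. Of the sex-linked genes Xist, from the inactive X chromosome, read 99.9, 136 and 149 and the Y-linked Eif2s3y 55.3, 46.1 and 46.7. The 4 measured sex-linked genes summed to 268, 283 and 294 in heart 1, heart 2 and the pool, and to 236 to 1068 in the transgenic arrays. The part of sex in the comparisons with the transgenic lines was not tested.

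Agreement between the 3 arrays was close for bright genes. Over the 5802 genes with a mean of at least 100, the median size of the log2 difference between the single hearts was 0.20, and between the pool and their mean 0.15. Over the 100 brightest genes these medians were 0.12 and 0.08, and the median coefficient of variation was 6.30%. The steadiest of the 100 were Nme2, a nucleoside diphosphate kinase gene (4536, 4532 and 4506), Fhl2 (3361, 3402 and 3386), the complex I gene Ndufc1 (4134, 4062 and 4117), Myl2 and the fatty acid elongation gene Tecr (3267, 3212 and 3271). The widest were Ndufs8, a complex I gene (3403, 2706 and 4014), Ankrd1 (4648, 3342 and 4526), Tcap (4473, 5101 and 3704), Bsg, the membrane glycoprotein basigin (4944, 3603 and 4194), and Ndufb7 (3736, 2806 and 3292). Heart 2 was lowest for each of these but Tcap. A second Ankrd1 probe set read 2932, 2882 and 2778, so that its scatter was not seen by both.

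Larger gaps between the single hearts were few. Of the 5802 genes, 14 (0.241%) were at least 2-fold higher in heart 1 and 12 (0.207%) at least 2-fold higher in heart 2. There is no replicate check of a difference between 2 hearts. The largest excess in heart 1 was that of Nipsnap2, a mitochondrial membrane protein gene (967 against 308, with 376 in the pool). Next were the nuclear factor I genes Nfix (464, 169 and 629) and Nfic (427, 182 and 878), Actb, cytoplasmic beta-actin (350, 152 and 5185), Vldlr, a lipoprotein receptor (658, 299 and 980), Phlda1 (327, 153 and 336), Wdr26 (127, 59.7 and 519) and Tnfrsf12a, the TWEAK receptor (569, 272 and 556). For all of these but Nipsnap2 and Tnfrsf12a the pool read above both hearts, and heart 2 was the lowest NTG array for every one of the 8.

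Heart 2 stood apart in interferon-inducible genes. Interferons are antiviral and antibacterial cytokines that act through JAK kinases and STAT factors, and interferon gamma in particular induces immunity-related GTPases and guanylate-binding proteins, which attack the vacuoles of intracellular pathogens, and the antigen presentation machinery. Igtp, also called Irgm3, read 198 in heart 1, 1551 in heart 2 and 193 in the pool, 7.83-fold higher in heart 2 than in heart 1. Irgm2, of the same family, read 86.4, 666 and 69.7. The guanylate-binding genes Gbp6, Gbp7 and Gbp2 read 49.8, 268 and 65.9, then 128, 536 and 116, and 172, 420 and 171. Iigp1, which attacks pathogen vacuoles, read 337, 1466 and 477. Heart 2 was the highest NTG array for each. For Iigp1 heart 1 and the pool were not low beside the transgenic single hearts, which read 98.1 to 158, and this gene was called higher in the transgenic pools by limma (log2 difference 1.62 ± 0.27 SE, adjusted p = 0.00472). These 6 were among the 8 largest excesses of heart 2, and the other two were Mtm1, the myotubularin lipid phosphatase gene (149, 414 and 79.3), and Gm9222 (59.3, 164 and 98.1).

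**Figure D3:**
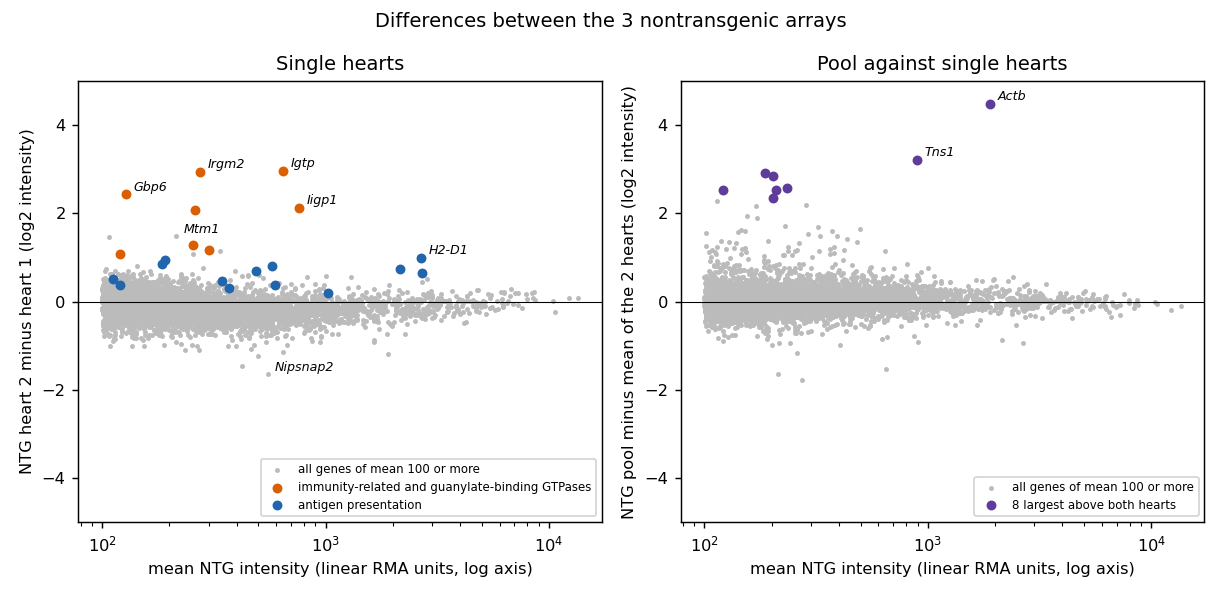
Each point is 1 of the genes with a mean NTG intensity of at least 100 (x axis, linear RMA units, log scale). The y axis is heart 2 minus heart 1 (left) or the pool minus the mean of the 2 hearts (right), in log2 intensity, with GTPase genes in orange, antigen presentation genes in blue and the 8 largest excesses of the pool in purple. On the left the immunity-related and guanylate-binding GTPase genes lie at the top, with Igtp at 7.83-fold, and on the right Actb, at 22.5-fold, and Tns1 lie highest.

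The remaining members of this class were examined in a list written after these values had been seen. Of 11 measured immunity-related and guanylate-binding GTPase genes, 6 had been picked above for their excess in heart 2, so that their place is no further result. The remaining 5, Irgm1, Ifi47, Gbp3, Gbp8 and Gbp2b, were also higher in heart 2 than in any of the other 9 arrays of the series, as were 7.21% of all ranked genes. Since the list was written with these values known, this is a description. Over all 11, the excess over the highest other array ran from 7.65-fold for Igtp and 7.04-fold for Irgm2 to 1.19-fold for Gbp2b. Irgm1 read 214, 484 and 202, Gbp3 49.5, 145 and 46.2, and Ifi47 93.0, 197 and 72.6. The summed level of the 11 was 5802 in heart 2, 1362 in heart 1, 1446 in the pool and 840 to 1646 in the transgenic arrays. Of 16 antigen presentation genes, 14 were highest in heart 2. H2-D1, a class I heavy chain gene, read 2147, 4288 and 1592, B2m, its light chain partner, 2295, 3581 and 2259, and the immunoproteasome gene Psmb9 155, 296 and 120. The class II genes H2-Aa and Cd74 read 402, 649 and 416, and 466, 808 and 453. H2-D1 and H2-K1 are close paralogues, as are the guanylate-binding genes, and signal may be shared between them.

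Further lists gave the following values. Of 13 genes in a list of interferon response genes, 11 were highest in heart 2, among them Ifit3 (118, 166 and 82.5), Ifit1 (55.3, 98.0 and 45.4) and Oasl2 (45.2, 71.8 and 35.9), and the median log2 difference of heart 1 from heart 2 was -0.67, against -0.58 for antigen presentation. This list shares Gbp2 and Gbp3 with the GTPases. Without Gbp2, picked above for its excess in heart 2, 10 of the remaining 12 genes were highest in heart 2 (median difference -0.65). Of all ranked genes 7.21% were highest of the 10 arrays in heart 2. In a further list of 21 signalling genes and targets 10 were highest in heart 2 (median difference -0.26), among them Wars, a tryptophanyl-tRNA synthetase (246, 544 and 220), the factor Irf1 (288, 348 and 253) and the chemokine Cxcl9 (66.2, 115 and 46.2). Ifng, interferon gamma itself, read 14.8, 16.0 and 13.6, near the floor of the arrays, and its receptor genes Ifngr1 and Ifngr2 were lowest in heart 2 (316, 250 and 313, and 786, 679 and 856). Lymphocyte markers summed to 552, 652 and 583, and macrophage markers to 3700, 3328 and 3146. The part of immune cells in the excess of heart 2 was not tested.

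**Figure D4:**
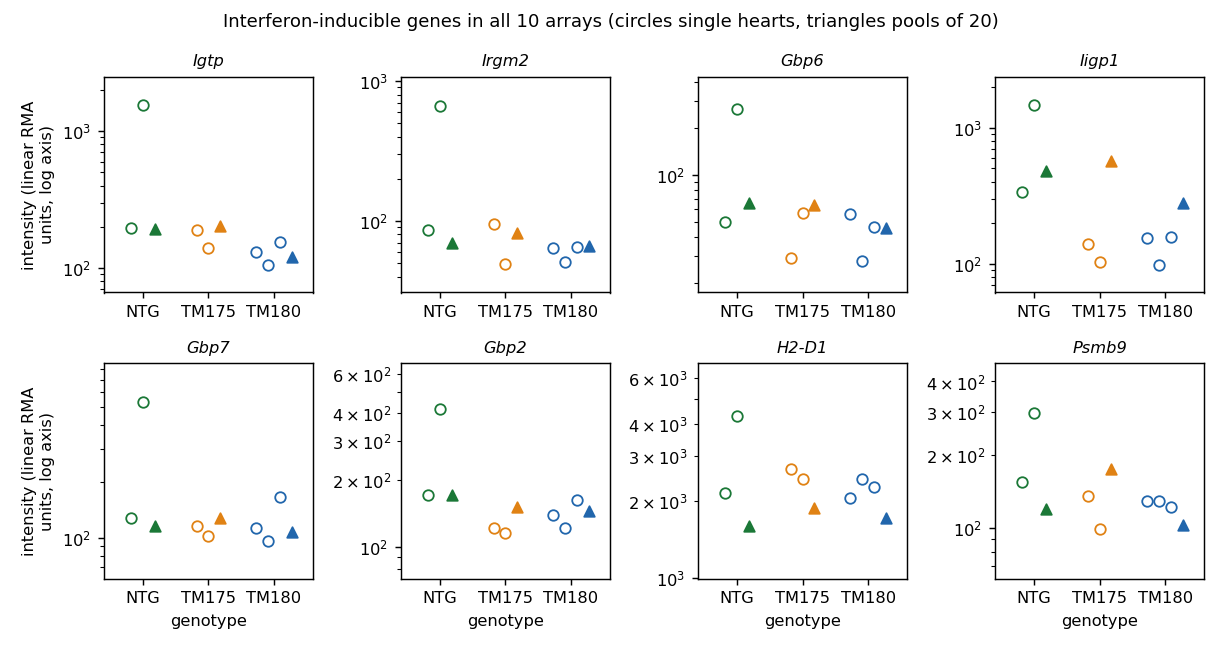
Panels show the probe set intensity (linear RMA units, log axis) of 8 interferon-inducible genes in all 10 arrays by genotype, circles for single hearts and triangles for pools of 20 hearts. In each panel the highest point is NTG heart 2, for example 1551 for Igtp against 106 to 203 in the other 9 arrays.

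Promoter stretches of 6 of these GTPase genes are shown because the genes moved together in heart 2. Only genes with a match to the response element described next were shown. Capitals mark matches to the core of the interferon-stimulated response element (GAAA, any 2 bases and GAAA, or TTTC, any 2 bases and TTTC on the other strand) and to a STAT site (TTCNNNGAA, the same on both strands), and neighbouring matches may overlap. The stretches are the 110 bases before each start, 5′ to 3′, from RefSeq for GRCm38.p6.
Igtp (chr11:58199446-58199555, plus strand): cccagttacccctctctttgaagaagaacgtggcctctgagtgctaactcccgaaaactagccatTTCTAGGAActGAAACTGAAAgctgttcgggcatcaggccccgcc
Irgm2 (chr11:58214867-58214976, plus strand): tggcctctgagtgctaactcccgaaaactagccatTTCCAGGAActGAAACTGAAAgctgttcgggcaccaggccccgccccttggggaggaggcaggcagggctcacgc
Irgm1 (chr11:48871421-48871530, minus strand): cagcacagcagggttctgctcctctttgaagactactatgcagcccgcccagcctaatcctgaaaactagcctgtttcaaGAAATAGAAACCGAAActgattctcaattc
Gbp2 (chr3:142620553-142620662, plus strand): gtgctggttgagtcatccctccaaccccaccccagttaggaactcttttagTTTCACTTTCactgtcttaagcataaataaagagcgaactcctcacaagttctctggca
Gbp3 (chr3:142559934-142560043, plus strand): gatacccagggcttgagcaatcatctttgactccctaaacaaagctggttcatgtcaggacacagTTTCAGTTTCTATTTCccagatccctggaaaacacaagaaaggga
Gbp7 (chr3:142530226-142530335, plus strand): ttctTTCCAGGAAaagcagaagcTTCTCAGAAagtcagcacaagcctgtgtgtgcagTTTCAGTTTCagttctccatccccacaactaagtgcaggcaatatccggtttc
Igtp and Irgm2 share a stretch with both matches, the STAT match starting at base -45 and base -75 and the response element at -34 and -64, counted from -1 at the base before the start. The response element was found in the 250 bases before the start of 7 of the 8 GTPase genes with an entry and of 3.46% of all genes, or before 77.8% of their 9 starts and 2.98% of all starts. It was found before 0 of 102 starts of the 100 brightest genes. The STAT match was found for 3 of the 8 genes and 8.13% of all genes, or before 33.3% of their starts and 7.02% of all starts, so that it was the less regular of the 2.

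The pool stood apart in a different set, though how many genes it held depended on the filter. It was at least 2-fold above both hearts for 40 of the 5802 genes (0.689%) and at least 2-fold below both for none (0%). This filter favours genes that are high in the pool, because the pool enters both the mean of 100 and the choice of the brightest probe set. Of the 40 genes, 22 had a mean of the single hearts under 100, and 19 had both hearts under 100. With probe set and minimum taken from the single hearts alone, a choice made after seeing the data, the pool was at least 2-fold above both for 9 of 5792 genes (0.155%) and below both for 1. The 9 were Palld, the actin-bundling protein palladin (147, 114 and 589), Rgs2, a G protein regulator (186, 185 and 599), Nfic, Ppargc1b, Tns1 by its second probe set, Mrpl16, Exoc4, Homer2 and Slc25a30. The 1 below was Ntmt1, a protein methyltransferase gene (59.8, 258 and 20.2). Actb read 350, 152 and 5185, 22.5-fold above the geometric mean of the single hearts. Tns1, the focal adhesion protein tensin, read 301, 186 and 2198, and Ppara 75.3, 57.7 and 477. Further large excesses by the first filter were those of Gdap10 (60.6, 57.0 and 443), Wdr26 (127, 59.7 and 519), Zfp148, a zinc finger factor (95.9, 67.7 and 465), Pbrm1, a chromatin remodelling subunit (56.6, 38.1 and 267), and Zfp207 (92.7, 79.3 and 436). For each of these the single hearts were low together and the pool was high.

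This excess was tested in arrays that had no part in the choice, by comparing the pooled with the individual extracts of the 2 transgenic lines. All 40 genes were called higher in the transgenic pools by limma (adjusted p under 0.05), against 7.10% of the 5802 genes under the same filter. Over all probe sets 7.82% were called higher and 16.9% in either direction. Their median log2 difference was 1.64. All 9 genes found by the single hearts alone were called higher too (median 1.66), against 5.97% of the 5792 genes. Actb had a log2 difference of 4.39 ± 0.18 SE (adjusted p = 8.27e-07), Tns1 3.56 ± 0.18 (2.60e-06) and Ppara 2.79 ± 0.12 (8.27e-07), higher in 2 of 2 pools than in any of the 5 single hearts. The 3 pools may share handling, which the labels do not give, so that pooling and handling cannot be told apart. Several of these genes have a second probe set that did not follow. A second Actb probe set read 993, 620 and 361, lowest in the pool (transgenic pools against single hearts, adjusted p = 0.352), and the second probe sets of Wdr26 and Zfp207 read 144, 124 and 161, and 192, 182 and 217. The second Tns1 probe set, at 424, 363 and 1172, did follow.

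Control probes for Actb and for repeats were higher in the pool, and those for Gapdh were closer together. The probe set for the middle of Actb read 346, 224 and 2710, that for its 3′ end 1034, 801 and 2998, and that for its 5′ end 730, 653 and 2123. Gapdh read 5925, 5952 and 6054 at its 3′ end and 7699, 7259 and 7959 in its middle. The ratio of 3′ to 5′ signal was 1.42, 1.23 and 1.41 for Actb and 1.06, 1.08 and 0.957 for Gapdh. Probe sets for the B1 and B2 repeats, short interspersed elements that lie in introns and untranslated regions, read 1268, 623 and 2178, and 4125, 3045 and 5881. The pool was the highest and heart 2 the lowest for both repeats. The part of RNA quality or unspliced RNA in the excess of the pool was not tested.

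**Figure D5:**
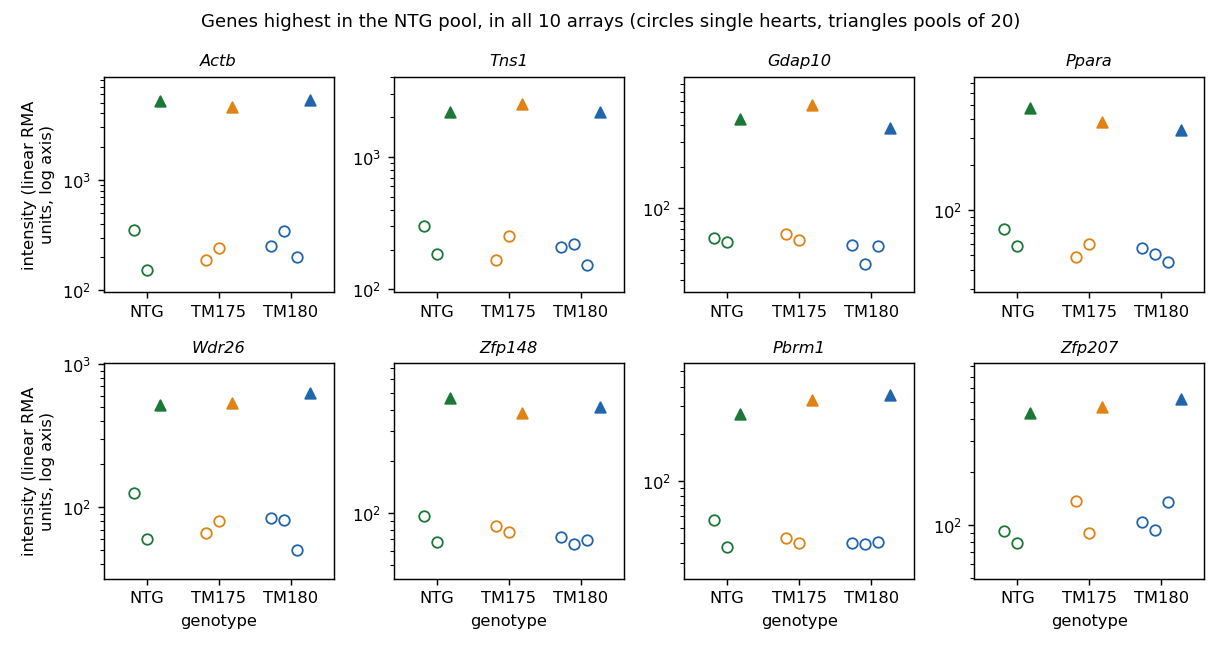
Panels show the probe set intensity (linear RMA units, log axis) of the 8 genes with the largest excess in the NTG pool, in all 10 arrays by genotype, circles for single hearts and triangles for pools of 20 hearts. In each panel the 3 pools lie above all 7 single hearts, for Actb at 5185, 4555 and 5325.

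Among the 8 largest deficits of the pool were Irgm2, Igtp and Gbp7, which were high in heart 2, and in the transgenic arrays their pools did not differ from single hearts by the test (log2 differences 0.20, 0.10 and 0.01, adjusted p = 0.548, 0.707 and 0.967). Mtm1 read 149, 414 and 79.3 and was called lower in the transgenic pools as well (-1.85 ± 0.15 SE, adjusted p = 4.82e-05, against 9.04% of all probe sets called lower). The splicing factor genes Hnrnpl (241, 238 and 120) and Celf2 (516, 449 and 244) and the Mediator gene Med1 (282, 290 and 150) were also called, with log2 differences of -0.79, -0.62 and -0.74. Ifi27l2a, an interferon-inducible gene (282, 231 and 133), was not (0.41, adjusted p = 0.175).

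Few of the ventricle's brightest genes passed a test against the transgenic lines, as was the case over all probe sets. Of the 100, 98 differed from TM175 and 97 from TM180 by a log2 difference under 0.5. In simulated data the fit found 19.4% of changes of 0.5. Those data held no difference between extract types and placed changes in probe sets of any brightness, so this share need not hold for the 100. In the limma fit of all 10 arrays with a mean per genotype, 2 of 22626 probe sets (0.00884%) differed between NTG and TM175 and 114 (0.504%, with 0.133% higher and 0.371% lower in NTG) between NTG and TM180, and 0 of the 100 brightest genes were among them. At an unadjusted p under 0.05 the first comparison had 2952 probe sets. With extract type as a covariate the counts were larger, at 0.862% of probe sets against TM175 (0.734% higher and 0.128% lower in NTG) and 2.01% against TM180 (0.539% higher and 1.47% lower). Of the 100 brightest genes 4 then passed against TM180 and 1 against TM175. Tpm1 was lower in NTG than in TM180 (log2 difference -0.42, adjusted p = 0.0169), whereas the LIM protein gene Fhl2 (0.48, adjusted p = 0.028), Hopx (0.58, adjusted p = 0.0477) and Acadm (0.42, adjusted p = 0.0398) were higher. Ndufab1, the mitochondrial acyl carrier protein gene, was higher in NTG than in TM175 (0.56, adjusted p = 0.0338). In the same limma fit these genes differed in the same direction from the other line without passing. Against TM175 the log2 differences were -0.39 for Tpm1 (adjusted p = 0.0513), 0.39 for Fhl2 (0.0792), 0.33 for Hopx (0.206) and 0.41 for Acadm (0.0628). Against TM180 that of Ndufab1 was 0.38 (0.0558). Whether the Tpm1 probe set also reads transcripts of the alpha-tropomyosin transgene was not tested.

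Among paralogues, Myh7 separated NTG from both lines. It was lower in NTG than in both lines, at 342, 350 and 325 against 2529 to 6319 in the 7 transgenic arrays, and no array overlapped (log2 differences -3.67, adjusted p = 0.00164, and -3.29 ± 0.27 SE, adjusted p = 0.00129). Nppa was lower than in TM180 (-3.43, adjusted p = 0.0483), though it passed in 3 of 10 fits that left out 1 array, while Myh7 passed in all 10 of each comparison. Further paralogues called against TM180 were Actg1 (-0.51), Eno2 (-0.55), Hk1 (-0.43) and Mt2 (-0.85), lower in NTG, and Acsl6 (0.84), higher. In the 10 fits that left out 1 array, Mt2 passed in 4, Acsl6 in 3, and Actg1, Eno2 and Hk1 in 0. Postn, the matrix protein periostin, was lower in NTG than in both lines (-1.65, adjusted p = 0.0368, and -2.33, adjusted p = 0.00125). It passed in 1 of 10 fits that left out 1 array against TM175 and in 10 of 10 against TM180. Of 25 extracellular matrix genes 10 were lower in NTG than in TM180, against 0.371% of all probe sets. That count was 1 without heart 1, 5 without heart 2 and 3 without the pool, 5, 6 and 7 without TM180 array 2, 3 or 4, and 7 to 13 without another array. Of the 11 GTPase genes 0 were called in either comparison, with median log2 differences of NTG from TM175 and TM180 of 0.80 and 0.70. These medians include heart 2, where the 11 genes summed to 5802. Their sums of 1362 in heart 1 and 1446 in the pool lay within the 840 to 1646 of the transgenic arrays. The class II genes H2-Aa (1.24, adjusted p = 0.0181) and H2-Ab1 (0.92, adjusted p = 0.049), 2 of the 16 antigen presentation genes, were called higher in NTG than in TM180 by limma. Over all probe sets 0.133% were called higher in NTG. Of the 16 genes, 14 were highest of the 10 arrays in heart 2, and how far these 2 calls rest on that heart is not given here. Each NTG array bore on the count against TM180, which was 8 without heart 1, 39 without heart 2 and 25 without the pool. It was also 17, 26 and 57 without TM180 array 2, 3 or 4, and 62 without TM175 array 2.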

How the data were processed

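Ventricular RNA of 10 mouse extracts was hybridised to Affymetrix arrays. The deposited table holds 1 intensity per probe set and array on a linear scale, which the authors made with RMA (background correction, normalization, summary), per the submitters' processing notes. Its version is not given in the sources used here.

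Intensities of 1000 or more are written with a point before the last 3 digits. This was undone from the digits and the other arrays of a probe set (7844 values in 1057 probe sets). The reading made 0 errors in 223030 values of a simulated table, which does not test the assumption about the mark. The level of 228 probe sets stayed unsettled, and these were left out of the ranking. Of 22690 probe sets, 64 controls were set aside, 20380 of the rest had 1 symbol, 691 several and 1555 none in the platform annotation.

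Comparisons were fitted to log2 intensity with limma 3.58.1 in R 4.3.3 (lmFit, eBayes, two-sided, Benjamini-Hochberg over 22626 probe sets, called under 0.05). Checked on simulated data with 2-fold changes, it found 92.5% of them against TM175, 82.1% against TM180 and 83.6% between extract types in the transgenic arrays. Of changes of 0.5 on the log2 scale it found 19.4%, 19.4% and 8.96%. Other steps used Python 3.11.15, pandas 2.3.3 and numpy 2.4.6.

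Named genes were the 20 brightest, the 5 steadiest and 5 widest of the 100 brightest, members of fixed families and lists, and the 8 largest differences in each direction between hearts and between pool and hearts. Genes, lists and motifs were chosen with earlier results of these data known, and the members of the GTPase and antigen presentation lists, and the second probe sets, after their values were seen. Alternatives covered the probe set of a gene, normalization, the arrays, covariates and filters.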

Additional observations from a re-analysis of the deposited data

Results flagged for a closer look

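In 26 genes whose transgenic values were examined, the highest or lowest of the 4 TM180 arrays lay far from the other 3 in 10 by Dixon's criterion. The genes had been named for large differences between the NTG arrays, and the same TM180 values had entered the test of pooled extracts. This is therefore a description and no further result. Chance marks about 1 in 20 groups of arrays for genes picked at random, and the share over all genes is not given here. In 9 of the 10 the array was the pool of 20 hearts, TM180 array 4, as in the NTG pool. It read 5325 for Actb (the next array 342), 2177 for Tns1 (221), 382 for Gdap10 (53.9), 342 for Ppara (56.3) and 632 for Wdr26 (84.3). It read 417 for Zfp148 (72.5), 352 for Pbrm1 (40.9), 520 for Zfp207 (136) and 1259 for Nfic (326). Irgm2 was lowest in TM180 array 2, at 50.9 against 63.7 in the nearest other array.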

How the results depend on the processing

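Of 754 values of named genes under other settings, 641 kept their direction and side of the threshold or moved by less than 1 SD, 22 moved further, 89 no longer passed, 1 newly passed and 1 reversed. For differences between hearts or of the pool, that SD is over the same 3 arrays and holds the difference itself, so that it tells little. With the mean over a gene's probe sets, the pool's log2 excess fell from 4.49 to 2.45 for Actb, from 2.57 to 1.17 for Wdr26 and from 2.35 to 1.10 for Zfp207, and Wdr26's heart difference from 1.09 to 0.29. With probe set and minimum taken from the hearts alone, chosen after seeing the data, the genes at least 2-fold higher in the pool went from 40 to 9. The NTG pool's log2 excess for Pbrm1 became -0.071 when quantile normalization was applied again, and the cause was not tested. In the transgenic arrays the higher level of Pbrm1 in pooled extracts passed in 13 of 13 alternatives, that normalization among them. The 20 brightest genes kept 10 members with the mean of a gene's probe sets, 4 with unsettled levels read 1000 times higher (share 4.44%), and between 19 and 20 without 1 array (share 5.32% to 5.67%). Their share was 5.95% without probe sets ending in _x_at or _s_at. This higher reading and leaving out those probe sets were chosen after seeing the data. Counts of calls moved more. Against TM175 they were 195 with extract type as a covariate, 0 in limma with only the 2 groups (2184 at an unadjusted p under 0.05) and 1 to 2 without 1 array. Against TM180 they were 454 with extract type, 44 with individual extracts, 55 with only the 2 groups and 8 to 135 without 1 array. Between extract types in transgenic arrays 3814 became 1299 above the median level, 1213 at a fold of 1.5 and 813 to 3423 without 1 array. In all arrays 5013 (22.2%) became 1926, 1065 and 2049 to 6791. With the replicate number as a block the 4 counts were 1, 32, 1650 and 340. Deviations of arrays with the same number correlated at -0.113, 0.391 and 0.707 with TM175 and 0.314, 0.314 and -0.534 with TM180. Number 3 is the pool in NTG and TM175 but a single heart in TM180, and the numbers were not taken to pair the arrays. The cause of these changes was not tested beyond the smaller number of arrays or probe sets. Probe sets near the floor of the arrays limit what can be said of dim genes such as Ifng.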
